A study of Mus musculus with 6 samples.

Results

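The activity-regulated immediate early genes are a set of 35 genes, chosen by name, that neurons transcribe within minutes to hours of being driven. All 35 symbols were found in the deposited table of 55421 genes, each under 1 Ensembl identifier, and all 35 were kept by edgeR's filter, which left 17069 genes to test. Hippocampal RNA came from wild-type male C57BL/6N mice aged 8 to 10 weeks. One group of 3 mice received substance P (SP, 10 µM in 100 µL) under the skin daily for 14 days, and the other group of 3 received 100 µL of saline (vehicle). A stranded mRNA library was made from each mouse. The study asked how prolonged exposure to SP in the periphery acts on the hippocampus, and the comparison here is whether the transcripts that follow neuronal activity differed between the groups and between mice.

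The list was drawn from immediate early and other activity-induced genes. Immediate early genes in the strict sense are transcribed from promoters that are already poised, without the need for new protein. Calcium entry and growth factor signals reach them through kinases that act on transcription factors such as CREB, bound at cAMP response elements (CRE), and serum response factor (SRF), bound at CArG boxes. Their products are transcription factors, phosphatases and kinases that end the signal, and proteins of the synapse, and in the hippocampus their RNA is widely used as a record of which neurons were recently active. Much of that RNA is short-lived, so its level in a dissected tissue depends on what the animal experienced shortly before. The interval between the last injection, or any handling, and the removal of the hippocampus is not given for these mice in the sources used here.

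The 6 libraries held between 22349941 and 27605937 counts, so that 3 counts corresponded to 0.109 to 0.135 CPM (counts scaled by the normalized size of each library). Libraries are named here by group and mouse number, as in SP 1. The labels call the mouse number a batch, so it was entered as a block in the test, as the study adjusted for replicates. Markers of dentate granule cells and of CA3 were present in every library, as the labelled tissue requires. No gene in the table shows which mice were injected, so which libraries are SP rests on the labels alone, and every direction is that of the libraries labelled SP against those labelled vehicle. In whole tissue, fewer cells of a type and less RNA per cell cannot be told apart.

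No immediate early gene passed the test between SP and vehicle at FDR < 0.1 and |log2FC| > 0.3, the study's thresholds, in edgeR's quasi-likelihood test. Of all tested genes, 5 (0.0293%) passed. With limma-voom the count among the 35 genes was also 0. The study applied its thresholds in DESeq2, adjusting for replicates. With DESeq2 and the block the count was 1 (*Nr4a2*), where 36 of 11443 genes (0.315%) passed. In edgeR the lowest FDR among the 35 genes was 0.308, and their log2 fold changes ran from -0.47 in *Dusp1* to 0.38 in *Dusp5*. There were 16 genes above 0 and 19 below, and the median was -0.033, against 0.0015 over all tested genes. The list as a whole was therefore centred close to 0, with single genes to either side.

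At an unadjusted p under 0.05, 7 of the 35 genes stood out, 20.0% against 10.1% of all tested genes. The 4 with higher values in SP were *Dusp5*, *Nr4a3*, *Nptx2* and *Klf10* (11.4%, against 4.48% of all genes). The 3 with lower values were *Nr4a2*, *Dusp1* and *Btg2* (8.57%, against 5.59%). This count depended on the mice. It was 3 without replicate number 1, where 5.93% of all genes had such a p, 4 without number 2 (11.4% of all genes) and 13 without number 3 (10.2%). With the block left out as well, it was 3 without the library vehicle 2 (8.94%) and 14 without SP 3 (15.2%).

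The groups separated completely, with every SP library above every vehicle library, in 3 genes (*Dusp5*, *Nr4a3* and *Nptx2*, 8.57%), and 9.19% of all genes did so. They separated in the other direction in 2 genes (*Nr4a2* and *Fosl2*, 5.71%), as did 9.03% of all genes. In all 3 pairs of mice with the same number, 6 genes (17.1%) were higher in SP, where the background was 16.4%, and 6 (17.1%) were lower, where it was 16.7%. These 4 shares lay near or under their backgrounds. For 1 gene and 3 mice a group, the smallest p of a two-sided exact permutation test is 0.1.

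**Figure D1:**
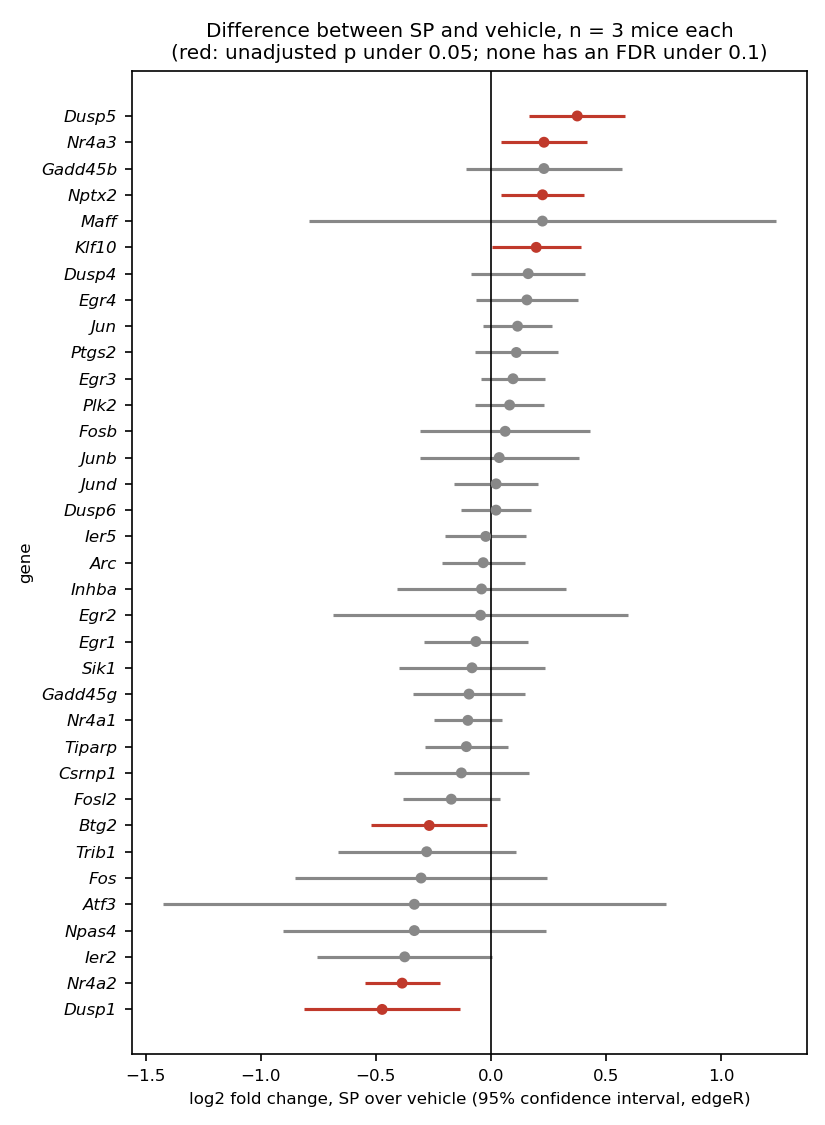
Log2 fold change of each of the 35 immediate early genes, SP over vehicle, with its 95% confidence interval from edgeR (3 mice in each group; red marks an unadjusted p under 0.05). The points run from -0.47 in Dusp1 to 0.38 in Dusp5, on both sides of 0, and no gene had an FDR under 0.1.

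The 4 genes most used to mark recently active neurons, *Fos*, *Npas4*, *Egr1* and *Arc*, passed no threshold between the groups and scattered more widely among SP mice than among vehicle mice. *Fos* (ENSMUSG00000021250, chromosome 12 of GRCm38 from 85473890 to 85477273, plus strand) encodes the AP-1 subunit for which the whole class is known. It was measured at 12.1, 16.5 and 12.7 CPM in the vehicle libraries 1 to 3 and at 7.88, 9.21 and 17.7 CPM in the SP libraries. SP 1 and SP 2 lay under every vehicle library and SP 3 lay above every one. The log2 fold change was -0.30 (95% confidence interval -0.85 to 0.24, FDR 0.697).

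*Npas4* (ENSMUSG00000045903, chromosome 19 from 4984355 to 4990316, minus strand), a bHLH-PAS factor that responds chiefly to calcium entry into neurons, had 16.5, 17.6 and 16.1 CPM in vehicle and 7.84, 12.7 and 21.9 CPM in SP. The vehicle mice were within 1.09-fold of each other, whereas SP 3 was at 2.79 times the level of SP 1, and again the SP values lay on both sides of all vehicle values. Its log2 fold change was -0.33 (-0.90 to 0.24, FDR 0.687). The values of both genes rested on single libraries. Without SP 3 and without the block, *Fos* and *Npas4* had log2 fold changes of -0.69 and -0.71 and passed both thresholds, together with *Nr4a2* and *Dusp1*, in a fit where 357 of 16952 genes (2.11%) passed. Without SP 1 and without the block, the log2 fold changes were -0.036 for *Fos* and 0.042 for *Npas4*.

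*Egr1* (ENSMUSG00000038418), a zinc finger factor needed for late phases of synaptic plasticity, had 110, 122 and 126 CPM in vehicle against 85.0, 123 and 141 CPM in SP. *Arc* (ENSMUSG00000022602, chromosome 15 from 74669083 to 74672570, minus strand), whose product drives the removal of AMPA receptors from synapses, had 113, 137 and 126 CPM against 93.7, 143 and 135 CPM. In both, SP 1 was the lowest of the 6 libraries and the other SP libraries were in or above the vehicle range. The log2 fold changes were -0.065 for *Egr1* (-0.29 to 0.16, FDR 0.860) and -0.033 for *Arc* (-0.21 to 0.15, FDR 0.918). Without SP 1 and the block they were 0.14 and 0.15.

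**Figure D2:**
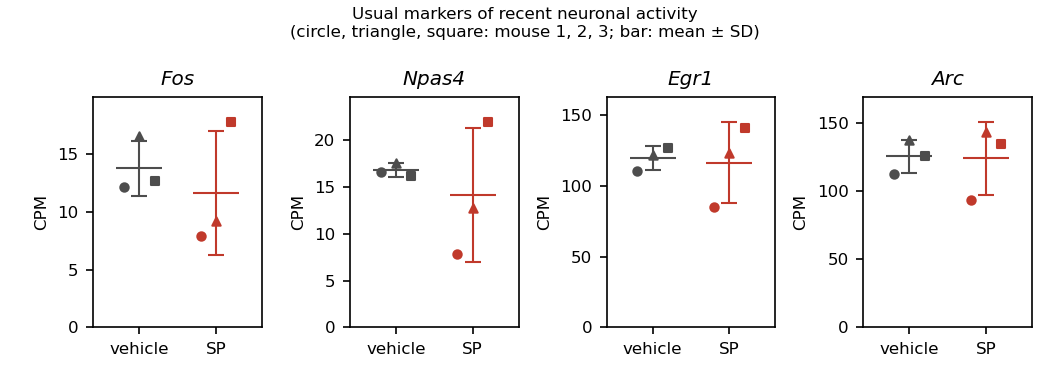
CPM of the 4 usual markers of recent neuronal activity in each library (circle, triangle and square are mice 1, 2 and 3; the bar is the mean and the error bar the SD, n = 3 mice a group). SP 1 is the lowest of the 6 libraries in all 4 genes, and SP 3 is the highest in Fos, Npas4 and Egr1, at 17.7, 21.9 and 141 CPM.

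Among the 8 bZIP factors, which bind DNA as dimers, 0 had an unadjusted p under 0.05. Their log2 fold changes ran from -0.33 in *Atf3*, induced by cell stress, to 0.22 in *Maff*, a small Maf protein. *Fosl2*, a Fos relative with slower kinetics, had 49.2, 51.5 and 49.3 CPM in vehicle and 48.4, 37.9 and 47.6 CPM in SP. The groups did not overlap, but SP 1 lay just under the lowest vehicle library and the log2 fold change of -0.17 (standard error 0.0905, FDR 0.567) rested mostly on SP 2. Without SP 2 and the block it was -0.059.

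The Jun family, the partners of Fos in AP-1, was close to even between the groups. *Jun* was at 98.0 ± 2.40 CPM in vehicle and 107 ± 12.0 CPM in SP (mean ± SD, n = 3 each), *Junb* at 50.9 ± 5.11 and 52.7 ± 11.4, and *Jund* at 93.5 ± 2.59 and 95.3 ± 10.4. In all 3 genes the SD was larger among SP mice. *Junb* and *Jund* were highest in SP 3 and lowest in SP 2, and *Jun* was highest in SP 1. *Fosb*, whose truncated protein accumulates under repeated stimulation, was at 6.21 ± 0.502 CPM in vehicle and 6.53 ± 1.30 CPM in SP. *Atf3* and *Maff* were the 2 genes with the lowest levels, with 4 to 25 counts a library, so that neither could be followed at this depth. *Atf3* had 17, 17 and 20 counts in vehicle and 14, 25 and 4 in SP.

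Of the 5 zinc finger factors, *Klf10*, a Krüppel-like factor induced by TGF-beta, had an unadjusted p under 0.05. It was at 19.6, 21.1 and 19.6 CPM in vehicle and at 23.4, 26.1 and 19.9 CPM in SP, higher in SP in each of the 3 pairs. SP 3 fell within the vehicle range. In log2 terms SP was higher by 0.20 (standard error 0.0827, FDR 0.490). Without SP 2 and the block it was 0.11. *Egr3* (0.097) and *Egr4* (0.16) had log2 fold changes above 0, and *Egr2* was at -0.045 (-0.69 to 0.60). *Egr2*, a low gene with 49 to 112 counts a library, repeated the order of *Fos* and *Npas4* in SP, with 2.09, 2.78 and 5.03 CPM in SP 1 to 3 against 3.22, 3.64 and 2.94 CPM in vehicle. Its log2 fold change was 0.010 without the block, so that it had no stable direction.

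The 3 Nr4a genes encode nuclear receptors that act without a known natural ligand and that hippocampal neurons induce during memory formation, and they differed from each other. *Nr4a2* (ENSMUSG00000026826, chromosome 2 from 57106830 to 57124003, minus strand) had 63.1, 56.0 and 59.8 CPM in the vehicle libraries and 46.4, 39.9 and 51.0 CPM in SP. All 3 SP mice lay under all 3 vehicle mice. The log2 fold change was -0.39 (standard error 0.0694, 95% confidence interval -0.55 to -0.22), with the lowest unadjusted p of the 35 genes (0.000716) and an FDR of 0.308 in edgeR.

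The call on *Nr4a2* depended on the tool. It passed both thresholds in DESeq2 with the block (FDR 0.0892; 36 genes called, 0.315% of the 11443 with an adjusted p, which 5 of the 35 lacked), in DESeq2 without the block (background 0.957%) and in edgeR without the filter on low counts (1.37%), where *Dusp1* and *Dusp5* passed too. Over all alternative fits its FDR ranged from 0.00731 to 0.712 and its log2 fold change from -0.47 to -0.29. The study names *Nr4a2*, from these same samples, among its upregulated genes, whereas it was lower here in the libraries labelled SP. The reason for the opposite direction was not tested, and the value here is not independent evidence.

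*Nr4a3* (ENSMUSG00000028341, chromosome 4 from 48045153 to 48086447, plus strand) went the other way, with 80.8, 85.6 and 92.0 CPM in vehicle and 93.8, 116 and 94.2 CPM in SP. The groups did not overlap, although SP 1 and SP 3 were just above vehicle 3. In edgeR the log2 fold change came to 0.23 (standard error 0.0792, FDR 0.426), and to 0.13 without SP 2 and the block. *Nr4a1*, also known as Nur77, had 54.1, 65.0 and 64.2 CPM in vehicle and 46.3, 63.2 and 62.6 CPM in SP. Its SP 2 and SP 3 libraries were close to vehicle 2 and 3, and its log2 fold change of -0.10 (FDR 0.635) turned to 0.040 without SP 1 and the block.

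The proximal promoters of the 3 genes are shown because the family is a classical CREB target while its members lay on both sides of 0. The windows are from RefSeq on GRCm38.p6, read 5′ to 3′ on the gene's strand and beginning 250 bases before the RefSeq start (*Nr4a1*, chr15:101266596-101266845, plus strand, inside the longest span annotated for the gene but outside its exons; *Nr4a2*, chr2:57124004-57124253, minus strand; *Nr4a3*, chr4:48045055-48045152, plus strand). Those of *Nr4a1* and *Nr4a2* run up to the start. Annotated exons were left out, so that of *Nr4a3* stops short of the RefSeq start after 98 bases. Capitals mark the CRE core TGACG, or CGTCA where it lies on the other strand.

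Nr4a1: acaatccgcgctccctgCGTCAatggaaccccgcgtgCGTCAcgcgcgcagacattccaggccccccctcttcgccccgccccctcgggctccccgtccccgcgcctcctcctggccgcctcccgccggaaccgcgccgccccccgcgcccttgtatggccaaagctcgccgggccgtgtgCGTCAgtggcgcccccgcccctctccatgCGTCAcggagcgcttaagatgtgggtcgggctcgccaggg

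Nr4a2: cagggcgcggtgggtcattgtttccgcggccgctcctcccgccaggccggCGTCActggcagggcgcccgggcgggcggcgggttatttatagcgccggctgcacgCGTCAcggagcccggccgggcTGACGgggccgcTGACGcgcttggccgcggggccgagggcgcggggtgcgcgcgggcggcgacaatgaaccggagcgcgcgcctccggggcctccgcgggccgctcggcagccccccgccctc

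Nr4a3: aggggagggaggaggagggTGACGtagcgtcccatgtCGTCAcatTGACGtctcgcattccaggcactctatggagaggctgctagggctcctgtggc

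The printed windows hold 4 cores in *Nr4a1*, 4 in *Nr4a2* and 3 in *Nr4a3*. Those of *Nr4a2* begin 200, 144, 123 and 111 bases before the start, and those of *Nr4a3* begin 231, 213 and 205 bases before it. The motif was thus present in all 3 promoters, and the letters alone did not separate *Nr4a2* from *Nr4a3*.

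Of the 7 other nuclear regulators, 6 had log2 fold changes below 0 and 1 had an unadjusted p under 0.05. That gene, *Btg2*, an antiproliferative cofactor, had 22.6, 24.0 and 20.7 CPM in vehicle and 16.1, 18.8 and 21.1 CPM in SP, with SP 3 inside the vehicle range. SP minus vehicle was -0.27 in log2 terms (standard error 0.107, FDR 0.470) and -0.17 without SP 1 and the block. *Ier2*, a small nuclear protein, was similar, at 5.63 ± 0.872 CPM in vehicle and 4.38 ± 1.13 CPM in SP (log2 fold change -0.37, FDR 0.501), and its SP 3 library was also within the vehicle range. *Ier5* (-0.022), *Gadd45g* (-0.095), *Tiparp* (-0.11) and *Csrnp1* (-0.13) were nearer to 0. *Gadd45b*, a stress-response protein linked to DNA demethylation in neurons, was at 0.23 (FDR 0.632), with its highest level in SP 1.

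The signalling group was split between *Dusp1* and *Dusp5*, both phosphatases that switch off MAP kinases in the nucleus. *Dusp1* (ENSMUSG00000024190, chromosome 17 from 26505590 to 26562128, minus strand) had 16.5, 21.1 and 19.3 CPM in vehicle and 11.3, 11.7 and 18.6 CPM in SP. SP 1 and SP 2 were well under every vehicle library and SP 3 was inside their range. At -0.47 (standard error 0.144, FDR 0.404), its log2 fold change lay furthest below 0 of the 35 and was -0.73 without SP 3 and the block. On the other strand its annotated exons overlap those of *Ergic1*, which had 2152 to 2678 counts a library, and the libraries were stranded.

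*Dusp5* (ENSMUSG00000034765, chromosome 19 from 53529109 to 53542431, plus strand) had 13.8, 17.5 and 16.9 CPM in vehicle and 20.6, 21.0 and 20.7 CPM in SP. The SP mice were nearly identical and all above the vehicle mice. The log2 fold change was 0.38 (standard error 0.0892, 95% confidence interval 0.17 to 0.58, FDR 0.337), and it stayed between 0.27 and 0.43 over all alternative fits. The related *Dusp4* and *Dusp6* had 0.16 (FDR 0.647) and 0.023 (FDR 0.931).

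The promoters of *Dusp1* and *Dusp5* are shown because this pair spans the whole range of the list and their windows differ in the motifs they hold (RefSeq, GRCm38.p6; *Dusp1*, chr17:26508520-26508722, minus strand, inside the longest annotated span of the gene but outside its exons; *Dusp5*, chr19:53528895-53529108, plus strand; both begin 250 bases before the RefSeq start and were cut short where an annotated exon began). Capitals mark the CRE core in *Dusp1*, where 2 of the 3 matches overlap as the full element TGACGTCA, and the CArG box in *Dusp5*.

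Dusp1: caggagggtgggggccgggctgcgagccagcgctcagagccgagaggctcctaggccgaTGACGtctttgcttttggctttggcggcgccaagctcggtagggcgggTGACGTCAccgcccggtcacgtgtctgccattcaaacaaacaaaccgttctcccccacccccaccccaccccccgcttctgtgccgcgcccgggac

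Dusp5: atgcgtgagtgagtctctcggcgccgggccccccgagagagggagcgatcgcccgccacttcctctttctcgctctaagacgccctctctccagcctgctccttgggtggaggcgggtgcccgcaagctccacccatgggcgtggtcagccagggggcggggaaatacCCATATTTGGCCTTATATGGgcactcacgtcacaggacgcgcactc

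The CArG boxes of *Dusp5*, CCATATTTGG and CCTTATATGG, directly follow each other and begin 82 and 72 bases before the start. In the full window of 250 bases *Dusp1* has no CArG box, whereas *Dusp5* has 1 CRE core, which is not marked. The pair was picked by its log2 fold changes, and whether the motifs bear on these was not tested. *Egr2*, with a log2 fold change of -0.045, has a CArG box too.

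The remaining signalling genes passed no threshold. *Sik1*, a kinase that restrains CREB coactivators, had 13.2 ± 0.961 CPM in vehicle and 12.6 ± 2.97 CPM in SP. *Trib1*, a pseudokinase that targets proteins for degradation, had 9.48 ± 1.29 and 7.83 ± 1.39 CPM. *Plk2*, a kinase of synaptic homeostasis, was at 168 ± 9.68 and 178 ± 11.3 CPM. Their log2 fold changes were -0.082, -0.28 and 0.082, with FDRs of 0.874, 0.609 and 0.703.

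Of the 4 synaptic and secreted effectors, *Nptx2* (ENSMUSG00000059991, chromosome 5 from 144545902 to 144557478, plus strand) had an unadjusted p under 0.05. Its product, neuronal pentraxin 2, gathers AMPA receptors at synapses onto interneurons. It had 17.5, 17.7 and 17.2 CPM in vehicle and 20.1, 22.2 and 19.0 CPM in SP, so the groups did not overlap and the vehicle mice were within 1.03-fold of each other. In log2 terms SP exceeded vehicle by 0.22 (standard error 0.0776, FDR 0.429). *Ptgs2*, the inducible cyclooxygenase COX-2, was at 19.5 ± 1.53 and 21.1 ± 2.53 CPM, and *Inhba*, a subunit of activin A, at 6.74 ± 0.600 and 6.64 ± 1.70 CPM. *Arc*, the last of this group, is given above.

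**Figure D3:**
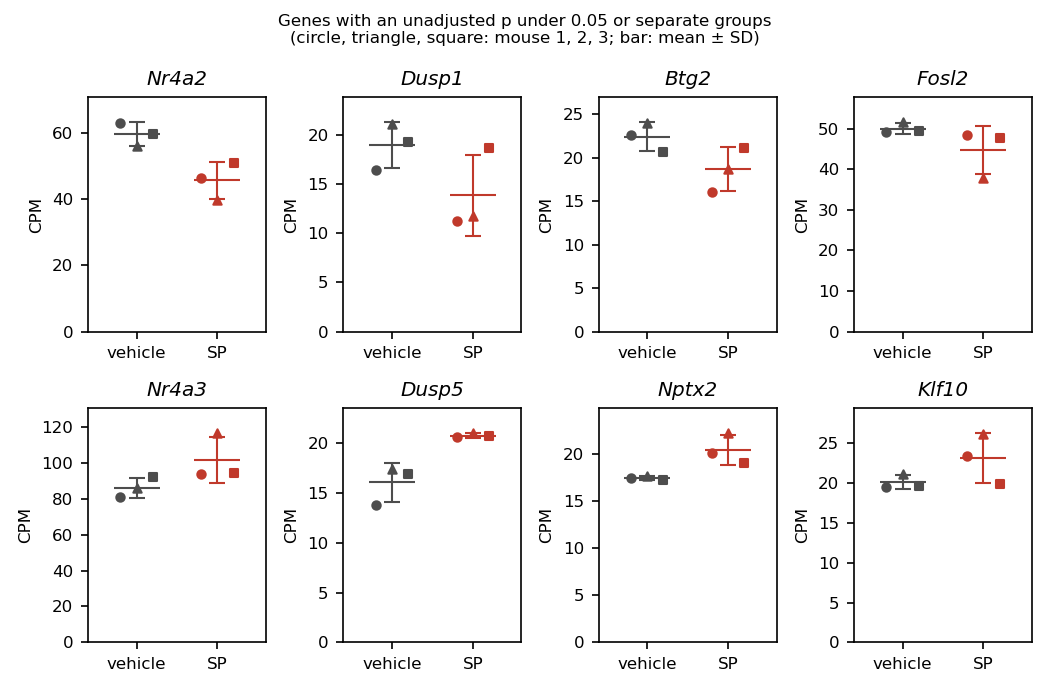
CPM in each library of the 8 immediate early genes that had an unadjusted p under 0.05 or whose groups did not overlap (circle, triangle and square are mice 1, 2 and 3; the bar is the mean and the error bar the SD, n = 3 mice a group; each axis starts at 0). In Nr4a2 and Dusp5 the groups are apart, at 39.9 to 51.0 against 56.0 to 63.1 CPM and 20.6 to 21.0 against 13.8 to 17.5 CPM, while in Dusp1, Btg2 and Klf10 the library SP 3 falls among the vehicle libraries.

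Libraries differed within groups, and in the activity markers most among the SP mice. Over the 35 genes the mean deviation from the vehicle mean, in log2 CPM, was -0.076, 0.054 and 0.022 in vehicle 1 to 3 and -0.14, -0.031 and 0.043 in SP 1 to 3. The median deviation was -0.076, 0.070 and 0.0054 in vehicle and -0.064, 0.045 and 0.038 in SP. By the median, SP 1 was thus not below vehicle 1. For the 4 activity markers the mean deviation was -0.11, 0.13 and -0.016 in vehicle and -0.69, -0.18 and 0.28 in SP. SP 1 was the lowest of the SP libraries in 18 of 35 genes (51.4%), and in 32.6% of all tested genes. SP 3 was the highest in 17 (48.6%), against 32.6% of all genes. The order SP 1, SP 2, SP 3 from lowest to highest occurred in 11 of the 35 genes (31.4%) and in 14.9% of all genes. Vehicle mice had a shared order as well, since vehicle 1, vehicle 3, vehicle 2 from lowest to highest occurred in 13 of the 35 (37.1%) and in 15.8% of all genes. The 11 genes of the SP order were *Fos*, *Npas4*, *Egr1*, *Egr2*, *Egr4*, *Dusp1*, *Btg2*, *Sik1*, *Ier5*, *Tiparp* and *Plk2*. The genes are measured in the same libraries and respond to common signals, so these counts describe 3 mice a group and are no test.

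Other genes did not follow this order. *Jun*, *Gadd45b* and *Maff* were highest in SP 1 and lowest in SP 3 (8.57%, against 12.7% of all genes). Another 7 (*Atf3*, *Ptgs2*, *Csrnp1*, *Egr3*, *Klf10*, *Inhba* and *Nptx2*) were also lowest in SP 3 but highest in SP 2 (20.0%, against 19.7%). These shares lay near or under those of all genes.

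**Figure D4:**
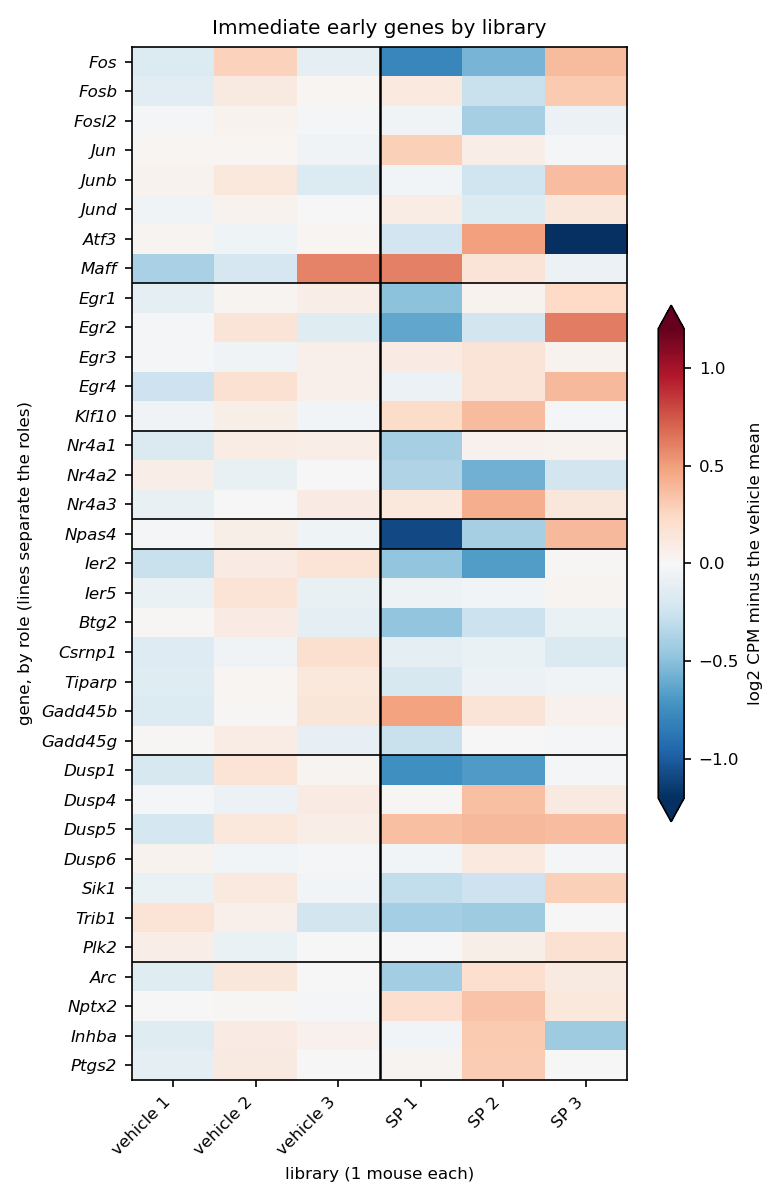
Log2 CPM of each immediate early gene in each library minus the mean of the 3 vehicle libraries, with genes sorted by role (blue is below the vehicle mean, red above; the scale ends at 1.2 in either direction). SP 1 is blue in Fos, Egr1, Egr2, Npas4 and Dusp1 while SP 3 is red or near 0 in these genes, and Jun and Gadd45b are red in SP 1.

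The scatter within groups showed the same. The SD of log2 CPM was larger among SP mice than among vehicle mice in 30 of the 35 genes (85.7%), against 63.2% of all tested genes. Its median over the 35 genes was 0.11 in vehicle and 0.20 in SP, and over all genes 0.084 and 0.11. *Dusp5*, *Csrnp1*, *Ier5*, *Tiparp* and *Maff* were the 5 genes with the smaller SD in SP. The difference in SD was not tested, since 3 mice give a poor estimate of spread.

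**Figure D5:**
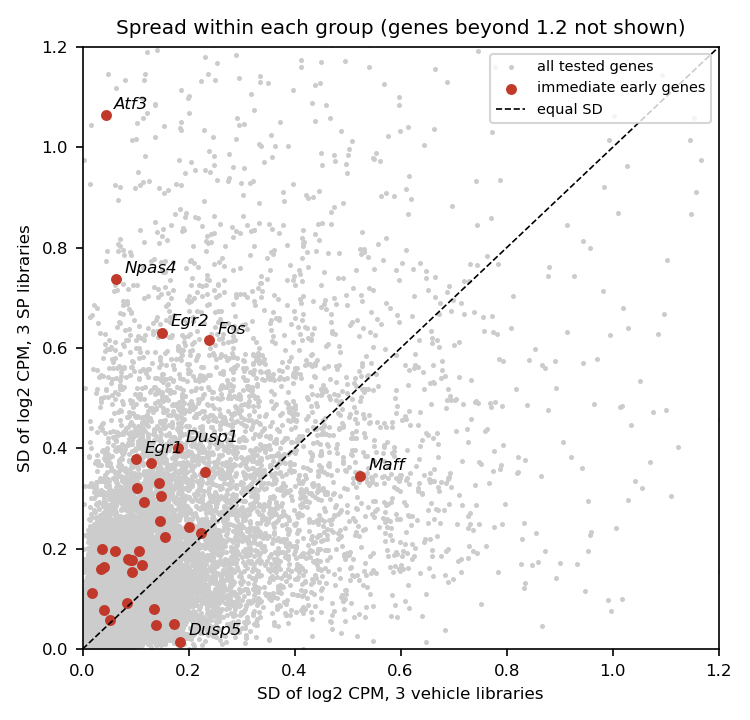
SD of log2 CPM over the 3 vehicle libraries (horizontal axis) and over the 3 SP libraries (vertical axis) for all tested genes (grey) and the 35 immediate early genes (red), with the line of equal SD; genes beyond 1.2 on an axis are not shown. Of the 35 genes, 30 lie above the line, with Atf3, Npas4, Egr2 and Fos highest, and Dusp5 lies far below it.

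Cell type markers and tissue content also differed between these libraries, and their part in the values above was not tested. The summed CPM of 5 choroid plexus markers was 3753 to 4674 in vehicle and 169, 2762 and 3910 in SP 1 to 3, so that SP 1, the library with the lowest activity markers, held little choroid plexus RNA. The 6 dentate granule cell markers summed to 393 to 415 in vehicle and to 489, 502 and 377 in SP 1 to 3. Oligodendrocyte markers summed to 3745 to 4213 in vehicle and 4307 to 6208 in SP, and those of CA3 to 171 to 191 and 190 to 220. Among the oligodendrocyte markers, *Mbp* (0.38) and *Mag* (0.37) were higher in the libraries labelled SP. The study names both among its downregulated genes, again the opposite direction, and the reason was not tested. Microglia (243 to 257 against 235 to 255) and astrocytes (2909 to 3128 against 2868 to 3168) overlapped between groups, as did CA1 (528 to 592 against 517 to 575) and endothelium (164 to 174 against 162 to 169). Markers of immature neurons summed to 76.1 to 81.4 in vehicle and 67.7 to 74.9 in SP. That difference came mostly from *Dcx* (-0.43), and *Sox11* (-0.16) was lower too, both without overlap between groups. Of all tested genes, 9.03% were lower without overlap. The other 3 of the 5 had log2 fold changes above 0 with groups that overlapped, among them *Eomes* (0.55), and the median was 0.095. None of the markers named was at 0 in all libraries.

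*Nr4a2* is also a known marker of layer 6b and subplate neurons, which lie next to the hippocampus. The 6 markers of layer 6b, subplate and subiculum summed to 163, 158 and 168 CPM in vehicle and to 148, 126 and 146 CPM in SP, without overlap. Their median log2 fold change was -0.39. The largest parts of the sum were *Fn1* and *Tle4*, at 78.7 and 50.6 CPM in vehicle. *Nr4a2*, *Ccn2*, *Nxph4*, *Moxd1* and *Fn1* were lowest in SP 2. *Tle4* and *Cplx3* were lowest in SP 1, and *Cplx3* was highest in SP 2, at 9.34 CPM. Whether tissue content bears on *Nr4a2* was not tested. Of these 6 markers 3 had an unadjusted p under 0.05, all lower in SP, namely *Ccn2* (-1.11), *Nxph4* (-0.83) and *Moxd1* (-0.47). Of all tested genes, 5.59% were lower at that p. *Ccn2* went from 15.3 CPM in vehicle to 7.42 CPM in SP (FDR 0.308 in edgeR). The summed neocortical markers were at 130 to 145 CPM in vehicle and 101 to 128 CPM in SP.

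Genes of the same pathway outside the list gave a like picture of small differences in both directions. Of 30 other activity-induced genes 29 were tested and 0 were called at the thresholds. The median log2 fold change was -0.017, with 2 genes higher and 3 lower at an unadjusted p under 0.05. The shares over all tested genes were 4.48% higher and 5.59% lower. The higher ones were *Errfi1* (0.26), a feedback inhibitor of EGF receptor signalling, and *Homer1* (0.12), a scaffold of the postsynaptic density. *Klf6* (-0.27), *Rgs4* (-0.19) and *Pcsk1* (-0.28) were the lower ones. *Bdnf*, the neurotrophin most studied as an activity-dependent gene, was at 33.9 ± 0.714 CPM in vehicle and 37.0 ± 2.89 CPM in SP (log2 fold change 0.13, FDR 0.556).

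Among 30 upstream transcription factors, coactivators and kinases, 3 were higher and 2 lower at an unadjusted p under 0.05, and the median was 0.049. Over all tested genes 4.48% were higher and 5.59% lower at that p. The smallest p in this list belonged to *Mef2c*, a factor that links calcium to synapse number. It was at 147 CPM in vehicle and 108 CPM in SP (log2 fold change -0.44, FDR 0.245). The study names *Mef2c*, too, among its upregulated genes, the opposite direction to the one here. The CREB coactivators *Crtc1* (0.19) and *Crtc3* (0.20) and the SRF cofactor *Elk1* (0.15) were the higher ones, and *Rps6ka2* (-0.14), a kinase of the MAP kinase pathway, was the other lower one.

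Heat shock genes, which tissue stress induces, had a median of 0.058 over 10 genes. In this list *Hspa1a* (0.29) and *Hspa1b* (0.42) were higher at an unadjusted p under 0.05, as were 4.48% of all tested genes. *Hspa1a* and *Hspa1b* are near-identical copies between which reads cannot be assigned with certainty.

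Per kilobase of annotated exon, the immediate early genes covered a wide range of basal levels in vehicle mice. *Jund* was at 56.1 CPM per kilobase, *Arc* at 41.0, *Plk2* at 37.4, *Jun* at 30.7 and *Egr1* at 26.7. At the other end *Maff* was at 0.194 and *Atf3* at 0.332, with *Egr2* at 0.961 and *Fosb* at 0.994. In the Nr4a family the order in vehicle was *Nr4a1* (17.4), *Nr4a2* (14.7) and *Nr4a3* (14.4), and in SP it was *Nr4a3* (16.9), *Nr4a1* (16.3) and *Nr4a2* (11.3). The genes that were abundant in vehicle, such as *Arc* and *Jund*, were so in SP too, at 40.5 and 57.2 CPM per kilobase.

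Most of the promoters that could be read held the core of the CRE. Of the 35 genes, 26 had an entry in the RefSeq table, and the 250 bases before the start were searched on both strands. *Egr1*, *Egr3*, *Klf10*, *Ier2*, *Dusp4*, *Sik1*, *Trib1*, *Arc* and *Nptx2* had no entry and were not searched. Motifs further upstream were not searched in any gene. The CRE core TGACG was present in 16 of 26 (61.5%), against 19.8% of 27025 genes, and these matches include those that are part of the full element. The full element TGACGTCA was present in 4 (*Maff*, *Btg2*, *Dusp1* and *Plk2*, 15.4%), against 1.77%. The CArG box was found in *Egr2* and *Dusp5* (7.69%, against 1.62%) and the EGR motif GCGTGGG in 4 (15.4%, against 4.94%). The AP-1 motif TGACTCA was found in *Csrnp1* (3.85%, against 5.16%), and TATAAA in 5 (19.2%, against 14.3%). A match is a run of letters and no measured binding site, and genes with a CRE core were found on both sides of 0, such as *Nr4a2*, *Dusp1* and *Btg2* below it and *Nr4a3* and *Dusp5* above.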

How the data were processed

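Per the labels and the study's methods, the authors used TrimGalore for trimming, STAR for alignment to GRCm38 and Salmon for quantification, within a Nextflow pipeline. Versions of these tools and the annotation release are not given in the sources used here. The deposited table holds their estimated counts per gene in 6 libraries, not scaled for library size or gene length. Of its values 9.77% were not whole numbers, and 10 of the 35 genes had such values, so counts were rounded.

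Differences were tested in R 4.3.3 with edgeR 4.0.16 (filterByExpr with a minimum count of 10 and a minimum total of 15, TMM normalization, glmQLFit and glmQLFTest) with the mouse number as a block, over 17069 genes, with Benjamini-Hochberg adjustment. The sources give 1 mouse per library. With the block the fit had 2 residual degrees of freedom, and edgeR shares information on spread between genes. A p-value or interval is therefore not a direct measure of the spread between the mice of a group. Deviations from the group means had Pearson's r of 0.0140, -0.0656 and 0.0734 across genes in mice of the same number, so the data themselves did not pair the mice. CPM came from edgeR's cpm function, log2 CPM with a prior count of 2. The 3-count limits cover counting error only. Exon lengths and positions came from GENCODE M21 on GRCm38. Alternatives were DESeq2 1.42.0, limma-voom (limma 3.58.1), other filters and normalizations, and fits without the block or without single mice. The fits without 1 library were chosen after seeing the data. The edgeR, DESeq2 and limma-voom fits with the block were tested on simulated data, where edgeR and limma-voom recovered more of the changed genes than DESeq2 but also called more unchanged genes than their FDR allows.

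The genes, the pathway and marker lists and the motifs were chosen with earlier results of these data known. All 35 genes are named. The values in every library are given for those with an unadjusted p under 0.05 or groups that do not overlap, for *Fos*, *Arc*, *Egr1* and *Npas4*, and, chosen after their values were seen, for *Atf3*, *Egr2* and *Nr4a1*. Other lists are given by counts, with up to 4 genes named by smallest p, and *Homer1*, *Bdnf*, *Rps6ka2*, *Tle4* and *Cplx3* besides.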

Additional observations from a re-analysis of the deposited data

How the results depend on the processing

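Among the alternatives, the number of the 35 genes that passed both thresholds was 3 with no filter on low counts (*Nr4a2*, *Dusp1* and *Dusp5*), 1 with DESeq2 with or without the replicate block (*Nr4a2*), and 0 to 4 when mice were left out, with 4 without SP 3. It was 0 with no replicate block, where 6 genes had an unadjusted p under 0.05, all of them among the 7 of the reported fit, and 0 in the other alternatives. The number with an unadjusted p under 0.05 was 4 in DESeq2 with the block and 3 to 14 when mice were left out. The median log2 fold change of the 35 genes ranged from -0.070 (without SP 3) to 0.041 (without vehicle 2) when mice were left out. The cause of these shifts was not tested. The replicate block was kept as the study's design. In edgeR it changed no call among the 35 genes, while over all tested genes 5 passed with it and 2 without it.

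Of the 35 genes, 21 had the same direction in every alternative. The other 14 turned when mice were left out, with log2 fold changes in the ranges *Fosb* (-0.070 to 0.27), *Junb* (-0.22 to 0.23), *Jund* (-0.042 to 0.14), *Atf3* (-0.95 to 0.19), *Maff* (-0.21 to 0.78), *Egr1* (-0.21 to 0.14), *Egr2* (-0.50 to 0.25), *Nr4a1* (-0.17 to 0.040), *Npas4* (-0.76 to 0.042), *Ier5* (-0.094 to 0.063), *Dusp6* (-0.040 to 0.073), *Sik1* (-0.29 to 0.060), *Arc* (-0.14 to 0.15) and *Inhba* (-0.22 to 0.17). *Egr2* also turned to 0.010 with no replicate block in edgeR, to 0.0097 with no replicate block in DESeq2 and to 0.011 in limma-voom. *Atf3* and *Maff* did not pass the filter of 10 counts in every library and have no value there. With the block, leaving out 1 mouse also removes its partner, so these fits hold 2 mice a group. Depth limited the 2 genes with under 30 counts a library, and the median standard error of the 35 genes was 0.0965 in log2 fold change.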
